A study of Homo sapiens with 21 samples.

Results

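The mRNA levels of 8 plasma membrane amino acid transporter genes were compared across all libraries: SLC6A14, SLC7A5, SLC3A2, SLC1A5, SLC7A11, SLC1A4, SLC38A1 and SLC38A2. They were taken by gene symbol, and all 8 were present among the 20111 genes listed in both experiments. The cells were PC-9, an established lung adenocarcinoma line that carries an activating EGFR deletion, and every group shared that line and its deletion. The first experiment held parental cells, EGFR-low cells and EGFR-high cells with no treatment, collected 24 h after seeding, in 3 libraries each. The second held EGFR-low and EGFR-high cells given DMSO (the solvent) or 1 µM vorinostat (SAHA, an inhibitor of histone deacetylases) for 72 h, again in 3 libraries each. EGFR-low and EGFR-high cells had been obtained from the parental line by 6 rounds of antibody staining and sorting, so they are sorted populations and not single clones.

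Mammalian cells take up amino acids through carriers that differ in substrate and in driving force. SLC6A14 is a concentrative carrier coupled to sodium and chloride that accepts neutral and cationic amino acids. SLC1A5 (ASCT2), SLC38A1 (SNAT1) and SLC38A2 (SNAT2) bring in glutamine and other neutral amino acids with sodium, and SLC1A4 (ASCT1) prefers alanine, serine, cysteine and threonine. SLC7A5 (LAT1) and SLC7A11 (xCT) are exchangers that reach the membrane only when joined to the SLC3A2 heavy chain. LAT1 exchanges glutamine for leucine and other large amino acids that activate mTORC1, while xCT imports cystine for glutathione synthesis.

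Upstream sequences are given for 3 of the genes, because SLC6A14 separated the sorted cells in the first experiment and SLC7A5 and SLC3A2, the subunits of one transporter, did so in the second. Each is the 250 bases before the annotated start in RefSeq on GRCh38.p14, read 5′ to 3′ on the gene's strand. The capitals mark CACGTG (an E-box, the letters bound by MYC and its relatives) or TGACNNNGC (the core of the antioxidant response element), both searched on both strands together with TGATGNAA (the composite element of ATF4 and C/EBP).
SLC6A14 (chrX:116436356-116436605, + strand): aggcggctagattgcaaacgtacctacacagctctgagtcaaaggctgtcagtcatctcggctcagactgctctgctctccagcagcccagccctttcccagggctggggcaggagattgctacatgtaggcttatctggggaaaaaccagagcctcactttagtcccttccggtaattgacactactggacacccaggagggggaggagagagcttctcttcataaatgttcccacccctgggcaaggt
SLC7A5 (chr16:87869508-87869757, - strand): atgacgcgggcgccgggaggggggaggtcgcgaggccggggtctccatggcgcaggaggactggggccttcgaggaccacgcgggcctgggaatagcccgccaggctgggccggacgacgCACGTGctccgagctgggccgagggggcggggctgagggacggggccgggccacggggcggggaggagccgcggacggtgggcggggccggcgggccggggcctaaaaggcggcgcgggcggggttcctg
SLC3A2 (chr11:62881449-62881698, + strand): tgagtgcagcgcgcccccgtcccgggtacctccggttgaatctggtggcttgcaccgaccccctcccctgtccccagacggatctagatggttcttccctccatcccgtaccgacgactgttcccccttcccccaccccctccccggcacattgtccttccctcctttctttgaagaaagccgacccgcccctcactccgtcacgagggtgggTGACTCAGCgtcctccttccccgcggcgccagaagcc
The SLC7A5 window held 1 E-box, the SLC3A2 window given here held 1 antioxidant response element core and the other 2 SLC3A2 windows held no match, and the SLC6A14 window held none of the searched letters. Of 35116 RefSeq upstream windows of the same length, 6.34% held CACGTG, 10.9% held TGACNNNGC and 3.14% held TGATGNAA. Of the other genes, the listed windows of SLC1A4, SLC38A1 and SLC38A2 held none of the searched letters, 2 of the 3 SLC1A5 windows held a match and SLC7A11 had no entry. These matches describe letters and not bound sites.

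Levels were FPKM, fragments scaled to transcript length and library size, and so can be compared between genes. Read depth is unknown, and low values are therefore given without an interval. In RNA of whole cultures, fewer cells of a type and less RNA per cell cannot be told apart. EGFR-low cells had lower EGFR than EGFR-high cells in every comparison, with a difference of -2.23 (SE 0.404, limma adjusted p = 0.011) on the log2(FPKM + 1) scale in the untreated cells, -2.13 with DMSO and -3.09 with vorinostat. In the second experiment 2 libraries stood apart from their groups. On its first principal component, which held 82.5% of the variance, the EGFR-low libraries lay between 61.6 and 66.7 and the EGFR-high libraries between -67.2 and -59.4, but EGFR-low DMSO replicate 1 lay at 25.6 and EGFR-high DMSO replicate 3 at -26.3. EGFR-low cells of the second experiment also stood apart from those of the first. Across 11118 genes their libraries correlated with untreated EGFR-low libraries at 0.754 to 0.867, whereas EGFR-high libraries of the second experiment did so with untreated EGFR-high libraries at 0.889 to 0.957. Untreated EGFR-low libraries correlated at 0.884 to 0.928 with EGFR-high DMSO and at 0.852 to 0.92 with EGFR-high vorinostat libraries, against 0.756 to 0.867 with EGFR-low DMSO and 0.754 to 0.798 with EGFR-low vorinostat libraries. NKX2-1, the lung lineage transcription factor, reached 24.1 to 51.1 FPKM in the EGFR-low libraries of the second experiment and at most 0.069 FPKM in untreated EGFR-low cells, and it was at 11.1 FPKM in EGFR-high DMSO replicate 3. Of the 4 lung lineage markers, 2 (NKX2-1 in every library and NAPSA in replicates 2 and 3) reached 1 FPKM in these EGFR-low groups and none did in the untreated groups, with summed levels of 24.3 to 53.9 against 0.0126 to 0.249 FPKM. All 6 epithelial markers were present in every group (summed 1550 to 4050 FPKM), and 5 of 6 fibroblast markers (all but COL1A1) were under 1 FPKM throughout. Of the 3 endothelial markers listed, VWF was under 1 FPKM throughout, CDH5 was at 2.197 FPKM or more in every library, and KDR was at 2.33 to 3.79 FPKM in the EGFR-low libraries of the second experiment against at most 0.0128 FPKM in untreated cells and 0.881 FPKM in EGFR-high DMSO replicate 3. The summed endothelial level was 2.27 to 8.3 FPKM over all libraries. Of the 5 hematopoietic markers, PTPRC and CD3E were under 1 FPKM throughout but highest in EGFR-low DMSO replicate 1 (0.805 and 0.937 FPKM), where LYZ was at 7.28 FPKM. CD79A was at 1.497 to 4.22 FPKM in the EGFR-low libraries of the second experiment against at most 0.255 FPKM in untreated cells, and the summed hematopoietic level was 16.6 to 39.5 FPKM over all libraries. CD68, at 14.5 to 39.3 FPKM over all libraries and present in every group, made up the larger part of that sum. The identity of these EGFR-low libraries and of the 2 intermediate libraries is therefore in doubt, and each EGFR-low against EGFR-high value of the second experiment is a comparison of libraries as labelled. The part of these library differences in the transporter results was not tested.

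SLC6A14 was the member that separated untreated EGFR-low cells most clearly. Its level was 13.4, 13.0 and 4.24 FPKM in the EGFR-low libraries, 0.565, 0.270 and 0.233 FPKM in parental cells, and 0.0926, 0.0496 and 0.0277 FPKM in EGFR-high cells. The 3 groups did not overlap, and the order was EGFR-low, parental, EGFR-high. EGFR-low cells averaged 10.2 ± 5.17 FPKM (SD, n = 3), 28.7 times that in parental cells and 180 times that in EGFR-high cells. On the log2(FPKM + 1) scale, which understates changes of genes near 1 FPKM, SLC6A14 was higher by 3.27 (SE 0.337, limma adjusted p = 0.000363) than in EGFR-high cells and by 2.92 (SE 0.337, adjusted p = 0.0015) than in parental cells. EGFR-high minus parental cells gave -0.35 (SE 0.337, adjusted p = 0.686). SLC6A14 reached 1 FPKM in the EGFR-low libraries only and so passed the filter on low values through the group in which it was high. Without any filter it was still called against EGFR-high (adjusted p = 0.0031) and parental cells (adjusted p = 0.00866).

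**Figure D1:**
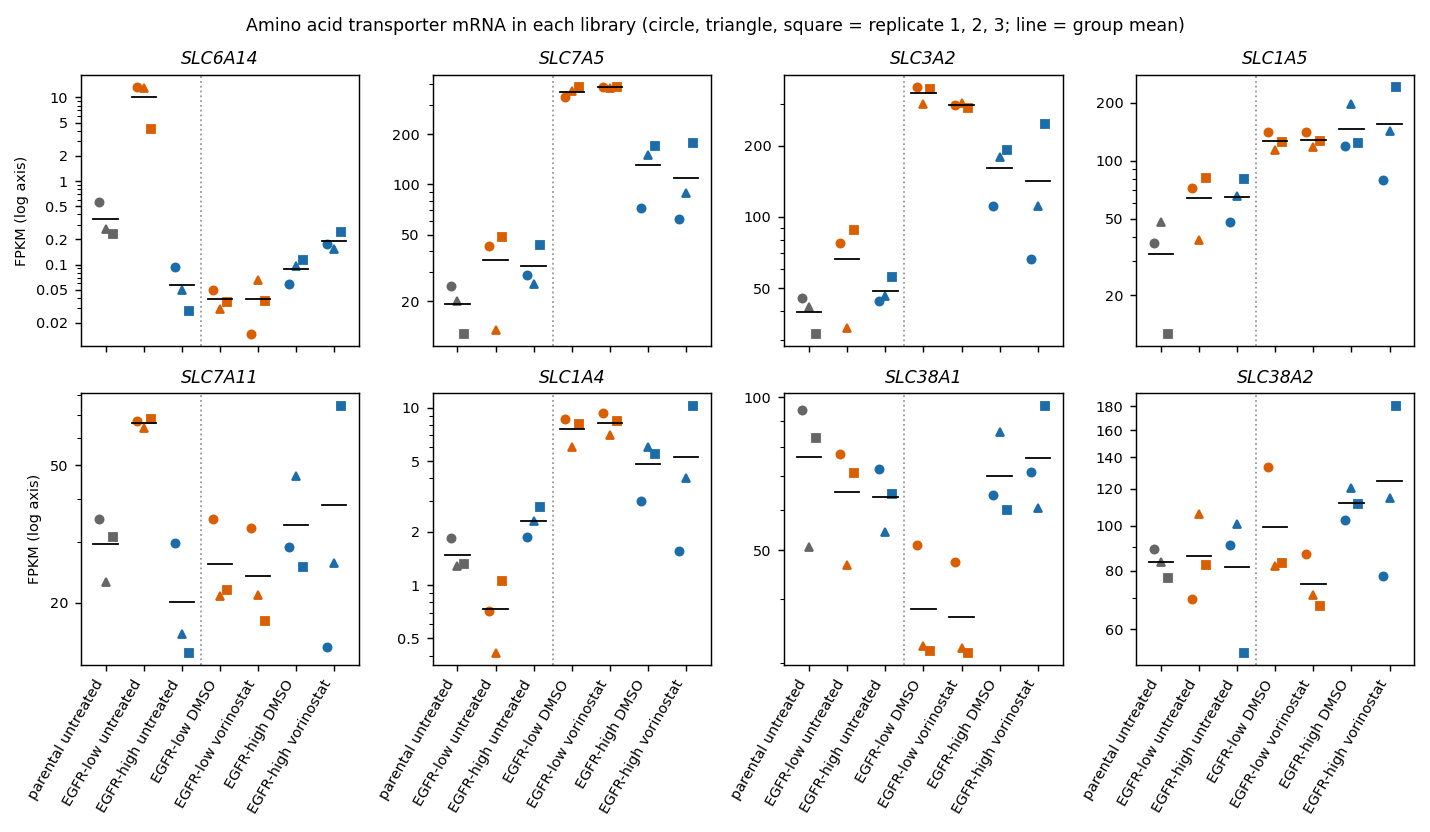
FPKM (log axis) of each transporter in each library, with 1 symbol per library, a line at each group mean and a dotted line between the 2 separately normalized experiments. SLC6A14 is high only in the untreated EGFR-low libraries (4.24 to 13.4 FPKM), and SLC7A5 and SLC3A2 are highest in the EGFR-low libraries of the second experiment.

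In the second experiment SLC6A14 was near 0 in every library, including those labelled EGFR-low. With DMSO it was at 0.0494, 0.0298 and 0.0359 FPKM in EGFR-low cells and at 0.0586, 0.0968 and 0.112 FPKM in EGFR-high cells. With vorinostat it was at 0.0148, 0.0648 and 0.0365 FPKM in EGFR-low cells and at 0.176, 0.156 and 0.246 FPKM in EGFR-high cells. The EGFR-high libraries were above the EGFR-low libraries under both treatments, the opposite order to the untreated cells. Under 1 FPKM throughout, SLC6A14 was not among the genes tested there. Without a filter on low values the difference was -0.20 on the log2(FPKM + 1) scale with vorinostat (SE 0.0299, limma adjusted p = 0.000557) and -0.07 with DMSO (adjusted p = 0.0986), both between levels under 0.25 FPKM. The EGFR-high vorinostat libraries were also all above the EGFR-high DMSO libraries (means 0.192 and 0.0893 FPKM), a difference that was not called (adjusted p = 0.963 without a filter).

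Among genes tested in both experiments, the 5 most like SLC6A14 by Pearson correlation of log2(FPKM + 1) over the 9 untreated and the 12 other libraries were ABCG1 (0.924 and 0.888), TGM5 (0.915 and 0.859), SERINC1 (0.836 and 0.861), MAP2 (0.961 and 0.828) and TMEM181 (0.849 and 0.822). These are descriptions over libraries that share groups, and in the second experiment they rest on SLC6A14 levels under 0.25 FPKM. MAP2, a microtubule-associated protein, was at 8.08, 7.50 and 7.29 FPKM in untreated EGFR-low cells against 0.468, 0.288 and 0.297 FPKM in EGFR-high cells. ABCG1, a sterol exporter, was at 2.91, 2.87 and 1.84 FPKM in untreated EGFR-low cells and at 0.599, 1.22 and 0.701 FPKM in EGFR-high cells. Both were near 0 in the EGFR-low vorinostat libraries (MAP2 at most 0.263 FPKM, ABCG1 at most 0.0389 FPKM), as SLC6A14 was. TGM5 was at most 0.365 FPKM in those libraries, but SERINC1 was at 38.3 to 42.9 FPKM and TMEM181 at 10.6 to 10.9 FPKM. SERINC1 was at 60.1 to 82.8 FPKM in untreated EGFR-low and at 32.3 to 48.3 FPKM in untreated EGFR-high cells, a much smaller contrast than that of SLC6A14. The EGFR-high vorinostat libraries were unlike SLC6A14 in level. In the EGFR-high vorinostat libraries ABCG1 was at 5.80, 4.35 and 7.28 FPKM and MAP2 at 6.27, 1.68 and 2.68 FPKM, whereas SLC6A14 stayed under 0.25 FPKM.

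Across all 8 members, 2 were called higher (SLC6A14 and SLC7A11) and 1 lower (SLC1A4) in untreated EGFR-low against EGFR-high cells, where 1.62% of the 11305 genes tested were called higher and 2.19% lower. The members were chosen with earlier results of these data known, so these counts are not a result about transporters as a group. SLC7A11, the cystine importer, was at 67.0, 64.2 and 68.0 FPKM in EGFR-low cells and at 29.9, 16.2 and 14.3 FPKM in EGFR-high cells. The 2 groups did not overlap, the EGFR-low libraries lay close together (SD 1.96 FPKM), and SLC7A11 was higher by 1.75 (SE 0.294, limma adjusted p = 0.00709), with a ratio of means of 3.3. SLC1A4 was at 0.713, 0.415 and 1.06 FPKM in EGFR-low cells and at 1.86, 2.30 and 2.77 FPKM in EGFR-high cells. SLC1A4 was thus lower in every EGFR-low library, with a log2 difference of -0.94 (SE 0.208, adjusted p = 0.0286). The SLC1A4 call was lost on leaving out any of 5 of the 6 libraries, with adjusted p from 0.0501 to 0.134.

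The other 5 members were not called there, with differences of at most 0.33 on the log2 scale in either direction (SE 0.289 to 0.461, limma adjusted p from 0.818 to 0.996). SLC7A5 was at 43.0, 13.4 and 48.7 FPKM in EGFR-low and at 28.7, 25.4 and 43.5 FPKM in EGFR-high cells. SLC3A2 was at 77.2, 33.95 and 87.6 FPKM in EGFR-low and at 44.1, 46.1 and 55.8 FPKM in EGFR-high cells. In both genes EGFR-low replicate 2 was the lowest of the 6 libraries and the groups overlapped. The glutamine carriers also overlapped: SLC1A5 ranged from 38.6 to 80.8 and from 47.7 to 80.1 FPKM, SLC38A1 from 46.8 to 77.4 and from 54.4 to 72.2 FPKM, and SLC38A2 from 69.6 to 106.0 and from 53.4 to 100.6 FPKM.

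Against parental cells, SLC6A14 was the only member called in EGFR-low cells, where 0.831% of genes tested were called higher and 0.77% lower. SLC7A11 was at 34.9, 23.0 and 30.9 FPKM in parental cells, below every EGFR-low library, and its difference of 1.16 (SE 0.294) had a limma adjusted p of 0.0919. SLC1A4 was at 1.85, 1.28 and 1.32 FPKM in parental cells, above every EGFR-low library, with a difference of -0.53 (SE 0.208, adjusted p = 0.269). SLC1A5 was at 37.4, 48.2 and 12.6 FPKM in parental cells and overlapped with EGFR-low cells (difference 1.07, adjusted p = 0.316). Between EGFR-high and parental cells 0 members were called by limma and 1 (SLC1A5) had an unadjusted p under 0.05, against 0.0619% of genes called higher and 0.00885% called lower, and 1093 of 11305 genes at an unadjusted p under 0.05. SLC7A5 and SLC1A4 were higher in every EGFR-high than in every parental library (means 32.5 against 19.2 FPKM and 2.31 against 1.48 FPKM), without passing the test (adjusted p = 0.538 and 0.507). The nearest EGFR-high and parental libraries were almost level, at 25.37 and 24.75 FPKM for SLC7A5 and at 1.857 and 1.85 FPKM for SLC1A4. The share of all genes whose groups do not overlap was not counted, in this or any other comparison. For single genes, exact two-sided permutation of 3 and 3 libraries gives p = 0.1 at best.

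**Figure D2:**
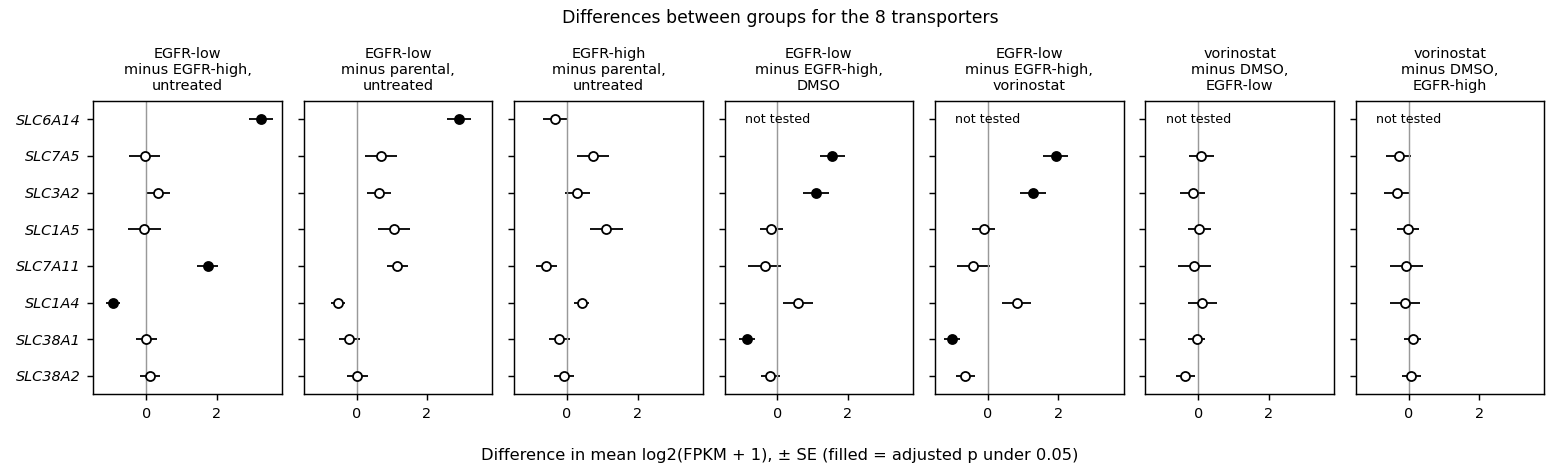
Difference in mean log2(FPKM + 1) of each transporter in 7 comparisons, with bars of 1 SE and filled symbols where the limma adjusted p was under 0.05. SLC6A14, SLC7A11 and SLC1A4 are filled in untreated EGFR-low against EGFR-high cells, SLC7A5, SLC3A2 and SLC38A1 in the same comparison with DMSO and with vorinostat, and none in vorinostat against DMSO.

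After DMSO or vorinostat the LAT1 subunits, not SLC6A14 or SLC7A11, were higher in EGFR-low cells. SLC7A5 was at 334.8, 361.3 and 384.4 FPKM in EGFR-low DMSO libraries and at 72.0, 149.5 and 169.0 FPKM in EGFR-high DMSO libraries. With vorinostat it was at 382.2, 380.1 and 384.2 FPKM in EGFR-low and at 62.2, 88.8 and 178.3 FPKM in EGFR-high cells. Every EGFR-low library was above every EGFR-high library under both treatments, by 1.55 with DMSO (SE 0.354, limma adjusted p = 0.00361) and by 1.93 with vorinostat (SE 0.354, adjusted p = 0.00066). How reads shared with the near-identical SLC7A5 pseudogenes were treated is not given in the sources used here, and its level is uncertain to that extent.

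SLC3A2, the heavy chain, followed SLC7A5. It was at 354.3, 299.9 and 347.2 FPKM in EGFR-low DMSO cells and at 110.8, 179.2 and 190.8 FPKM in EGFR-high DMSO cells. With vorinostat it was at 298.0, 304.3 and 288.7 FPKM in EGFR-low cells and at 66.3, 111.6 and 245.7 FPKM in EGFR-high cells. The groups did not overlap, and SLC3A2 was higher by 1.09 with DMSO (SE 0.364, limma adjusted p = 0.0256) and by 1.27 with vorinostat (SE 0.364, adjusted p = 0.0102). Without the intermediate DMSO libraries (EGFR-low replicate 1 and EGFR-high replicate 3) the SLC3A2 difference with DMSO was 1.19 and no longer called (adjusted p = 0.0581), and the SLC7A5 difference was 1.83 and still called (adjusted p = 0.00575). The DMSO call of SLC3A2 was also lost without EGFR-low replicate 1 (adjusted p = 0.0581), EGFR-low replicate 3 (0.0687) or EGFR-high replicate 1 (0.106), and with no filter on low values (0.0519). The vorinostat call of SLC3A2 was lost without replicate 1 of both vorinostat groups (difference 0.84, adjusted p = 0.0602).

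SLC38A1, a glutamine carrier, was lower in EGFR-low cells. It was at 51.2, 32.3 and 31.6 FPKM in EGFR-low DMSO cells and at 64.3, 85.5 and 59.9 FPKM in EGFR-high DMSO cells. With vorinostat it was at 47.4, 32.1 and 31.4 FPKM in EGFR-low and at 71.3, 60.6 and 96.3 FPKM in EGFR-high cells. Every EGFR-low library was below every EGFR-high library, with differences of -0.87 (SE 0.238, limma adjusted p = 0.00996) and -1.02 (SE 0.238, adjusted p = 0.00318). EGFR-low DMSO replicate 1, one of the intermediate libraries, was the nearest of its group to the EGFR-high cells. Thus 2 of the 7 members tested were called higher and 1 lower under each treatment, where 31.1% of 12236 genes were called higher and 20.7% lower with DMSO and 36.2% and 22.8% with vorinostat. Neither count was above the matching share of all genes. The median difference of all genes tested was 0.12 with DMSO and 0.16 with vorinostat and near 0 after median-of-ratios scaling, under which the same 3 members were called in the same directions with both treatments and SLC38A2 was added with vorinostat.

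The other 4 members tested were not called with either treatment. SLC1A4 was at 8.68, 6.01 and 8.06 FPKM in EGFR-low DMSO cells and at 3.00, 6.00 and 5.46 FPKM in EGFR-high DMSO cells. The lowest EGFR-low library was just above the highest EGFR-high library, the reverse of the untreated order, and the difference of 0.59 (SE 0.419) had a limma adjusted p of 0.26. With vorinostat SLC1A4 overlapped, since EGFR-high replicate 3 was at 10.3 FPKM and the other EGFR-high libraries at 1.56 and 4.0 FPKM. The SLC1A4 difference was 0.81 (SE 0.419, limma adjusted p = 0.116). Without EGFR-high replicate 3 it was 1.36 (adjusted p = 0.00385), and without EGFR-high replicate 1 it was 0.293 (adjusted p = 0.465). SLC38A2 gave a difference of -0.64 with vorinostat and missed the threshold (SE 0.269, limma adjusted p = 0.0569), which it passed after median-of-ratios scaling (adjusted p = 0.0155) or without EGFR-high vorinostat replicate 1 (adjusted p = 0.00606). Without EGFR-high vorinostat replicate 3 the SLC38A2 difference was -0.335 (adjusted p = 0.238). SLC1A5 ranged from 113.8 to 141.5 FPKM in the 6 EGFR-low libraries and from 79.2 to 241.2 FPKM in the 6 EGFR-high libraries. SLC7A11 ranged from 17.7 to 34.9 FPKM in the EGFR-low and from 14.9 to 74.5 FPKM in the EGFR-high libraries, so the separation seen in untreated cells was not present.

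The balance of light and heavy chain mRNA was read from the ratio of SLC7A5 to SLC3A2 in FPKM, for which no comparison passed the threshold. SLC3A2 also joins SLC7A11, so the ratio does not measure LAT1 subunits at the membrane. The uncertainty from the SLC7A5 pseudogenes enters it too. Untreated cells held less SLC7A5 than SLC3A2 in FPKM, with a ratio of 0.475 ± 0.0746 (SD, n = 3) in parental, 0.503 ± 0.0929 in EGFR-low and 0.66 ± 0.115 in EGFR-high cells. With DMSO the ratio was 0.945, 1.20 and 1.11 in EGFR-low libraries and 0.65, 0.834 and 0.886 in EGFR-high libraries. With vorinostat it was 1.28, 1.25 and 1.33 in EGFR-low and 0.938, 0.796 and 0.726 in EGFR-high libraries. The EGFR-low libraries were above the EGFR-high libraries under both treatments (exact two-sided permutation p = 0.1, the smallest 3 against 3 can give), whereas they overlapped in untreated cells (exact p = 0.3). Within EGFR-low cells the vorinostat libraries were above the DMSO libraries (exact p = 0.1), and within EGFR-high cells they overlapped (exact p = 0.7). Of 7 such comparisons 4 were at the smallest p, EGFR-high against parental cells among them, and each had an adjusted p of 0.175.

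As shares of the summed FPKM of the 8 genes, which do not depend on how a library was scaled, SLC38A1 and SLC38A2 were the most abundant members in parental cells, at 27.0% ± 7.37 and 29.7% ± 2.21 (SD, n = 3). SLC7A11 took 17.2% ± 2.71 in untreated EGFR-low cells, against 6.41% ± 2.66 in EGFR-high and 10.5% ± 1.90 in parental cells. SLC6A14 took 2.75% ± 1.62 in untreated EGFR-low cells and 0.122% in parental cells, so that it remained a minor species even where it was high. After DMSO or vorinostat SLC7A5 took 36.5% ± 4.23 with DMSO and 40.2% ± 1.70 with vorinostat in EGFR-low cells, against 19.4% ± 5.16 and 16.7% ± 0.58 in EGFR-high cells. SLC38A1 took 3.84% ± 0.884 and 3.86% ± 0.767 in the same EGFR-low groups, against 10.8% ± 2.04 and 13.2% ± 5.18 in EGFR-high cells. The 8 genes summed to 250 to 444 FPKM in the untreated libraries, to 916 to 1060 FPKM in the EGFR-low libraries of the second experiment and to 374 to 1030 FPKM in its EGFR-high libraries.

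No member tested was called as changed by vorinostat. In EGFR-low cells 0 were called and their differences from DMSO lay between -0.37 (SLC38A2, SE 0.269) and 0.12 (SLC1A4, SE 0.419), with limma adjusted p of 1.0 and the smallest unadjusted p at 0.195. In EGFR-high cells 0 were called and the differences lay between -0.35 (SLC3A2, SE 0.364) and 0.11 (SLC38A1, SE 0.238), with adjusted p from 0.94 to 0.993. The 2 responses differed by -0.44 (SLC38A2) to 0.38 (SLC7A5), with 0 members called (adjusted p = 0.999). In each of these comparisons 0.0% of the 12236 genes were called higher and 0.0% lower. An unadjusted p under 0.05 was found for 115, 409 and 215 genes (0.94%, 3.34% and 1.76%), and for none of the members. Each of these shares is under the one that this threshold gives when no gene changes. EGFR-high vorinostat replicate 1 was the lowest of its group for SLC7A5, SLC3A2, SLC1A5, SLC7A11, SLC1A4 and SLC38A2, and replicate 3 the highest for all 8 members. The 3 libraries of that group spanned 66.3 to 245.7 FPKM for SLC3A2, and the SE of a member's response was 0.238 to 0.469.

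Other amino acid transporters were read from a list of 38 genes, of which 16 were tested in untreated and 17 in treated cells. In untreated EGFR-low against EGFR-high cells 0 were higher and 1 was lower (SLC1A6, a glutamate carrier, difference -1.64, SE 0.305, limma adjusted p = 0.0123), with a list median of 0.02 against -0.03 for all genes. Of all genes tested there, 1.62% were called higher and 2.19% lower, and against parental cells 0.831% and 0.77%. The untreated counts of this list and of those that follow are to be read against these untreated shares. SLC1A3, also a glutamate carrier, was called lower as well with the replicate number as a block (difference -0.96, adjusted p = 0.0183), and was lower than in parental cells without the block (-1.17, SE 0.238, adjusted p = 0.0336). How many of all genes were called with the block was not counted, so calls with it, here and in the lists that follow, have no background share. With DMSO 2 were higher and 6 lower in EGFR-low cells (list median -0.33, all genes 0.12), and with vorinostat 3 were higher and 9 lower (list median -0.46, all genes 0.16). Of all genes tested, 31.1% were called higher and 20.7% lower with DMSO, and 36.2% and 22.8% with vorinostat. The counts in treated cells, of this list and of those that follow, are to be read against these shares. SLC1A6 was at 15.9, 0.258 and 0.121 FPKM in EGFR-low DMSO and at 41.2, 45.1 and 48.6 FPKM in EGFR-high DMSO libraries. SLC1A3 was at 7.998, 0.0325 and 0.0532 FPKM in EGFR-low DMSO and at 19.0, 29.1 and 31.3 FPKM in EGFR-high DMSO libraries. In both genes EGFR-low DMSO replicate 1 lay between the groups, as it did on the first principal component. The differences with DMSO were -3.995 (SE 0.773, adjusted p = 0.00138) for SLC1A6, -3.65 (SE 0.71, adjusted p = 0.00142) for SLC1A3 and -2.24 (SE 0.274, adjusted p = 0.000327) for SLC6A17, a synaptic vesicle carrier of neutral amino acids.

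Genes of cystine and glutathione metabolism, which use the cystine that SLC7A11 imports, numbered 10 in the list. In untreated EGFR-low against EGFR-high cells 0 of 8 tested were called (list median 0.25, all genes -0.03), and with the replicate block 2 were higher, GCLM (1.17, SE 0.223, limma adjusted p = 0.0195) and CTH (0.83, adjusted p = 0.0411). The share of all genes called with the block was not counted. GCLM, the modifier subunit of glutamate-cysteine ligase, was at 156.4, 142.4 and 149.2 FPKM in EGFR-low and at 96.9, 52.4 and 56.5 FPKM in EGFR-high cells, without overlap, as for SLC7A11. In the second experiment 2 of 10 were higher and 4 lower in EGFR-low cells under each treatment (list medians -0.31 and 0.12, all genes 0.12 and 0.16), beside 31.1% and 20.7% of all genes with DMSO and 36.2% and 22.8% with vorinostat. GCLM was then at 16.7, 8.45 and 5.80 FPKM in EGFR-low DMSO and at 39.2, 57.0 and 35.3 FPKM in EGFR-high DMSO cells, the opposite direction (-2.07, SE 0.355, adjusted p = 0.000716). GGT1, which splits extracellular glutathione, was at 23.3, 47.0 and 39.8 FPKM in EGFR-low DMSO and at 0.225, 0.362 and 8.46 FPKM in EGFR-high DMSO cells, where the intermediate replicate 3 was the highest (3.85, SE 0.618, adjusted p = 0.00052). AIFM2, a suppressor of ferroptosis, was lower (-1.61, SE 0.232, adjusted p = 0.00035).

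Of 17 genes of amino acid synthesis and use, 1 of 16 tested was called in untreated EGFR-low cells, and it was lower against both EGFR-high and parental cells. In these comparisons 2.19% and 0.77% of all genes tested were called lower. The called gene was CBS, which makes cystathionine from homocysteine and serine. It was at 0.378, 0.260 and 0.306 FPKM in EGFR-low, 12.8, 10.9 and 15.5 FPKM in EGFR-high and 5.33, 6.67 and 3.95 FPKM in parental cells. The 3 groups did not overlap, and their order was the reverse of that of SLC6A14 (differences -3.41, SE 0.229, limma adjusted p = 1.97e-05, and -2.24, SE 0.229, adjusted p = 0.000684). The list median was -0.10 (all genes -0.03) against EGFR-high cells, and the replicate block added GLUL as higher and ASNS and PSAT1 as lower. CBS had the opposite order under DMSO, at 37.5, 35.8 and 44.2 FPKM in EGFR-low and 16.7, 29.5 and 26.5 FPKM in EGFR-high cells. It was not called there, but was among the genes called higher with vorinostat. Under treatment 5 of 17 were higher and 3 lower with DMSO (list median 0.37) and 8 were higher and 2 lower with vorinostat (0.67). The DMSO counts were near the shares of all genes called (31.1% higher and 20.7% lower), and with vorinostat those shares were 36.2% and 22.8%. GOT1, an aspartate aminotransferase, was higher by 1.36 (SE 0.247, adjusted p = 0.000985) and PYCR1, of proline synthesis, by 1.16 (SE 0.209, adjusted p = 0.000922) with DMSO. BCAT1, which transaminates branched-chain amino acids, was at 2.14, 0.0437 and 0.0308 FPKM in EGFR-low DMSO and at 6.25, 12.8 and 7.03 FPKM in EGFR-high DMSO cells (-2.63, SE 0.467, adjusted p = 0.000863).

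Amino acid sensing to mTORC1, the kinase complex that leucine from LAT1 activates, was read from 29 genes. In untreated EGFR-low against EGFR-high cells 0 of 24 tested were called by limma (list median 0.08, all genes -0.03), and the replicate block gave 1 higher (SESN1) and 1 lower (MIOS). Between treated cells 11 of 27 were higher and 4 lower with DMSO (list median 0.26, all genes 0.12), and 13 were higher and 4 lower with vorinostat (0.39, all genes 0.16). The shares of all genes called were 31.1% higher and 20.7% lower with DMSO and 36.2% and 22.8% with vorinostat. RRAGD, a Rag GTPase, was at 1.85, 2.82 and 2.65 FPKM in EGFR-low DMSO and at 0.0461, 0.0498 and 0.468 FPKM in EGFR-high DMSO cells (1.54, SE 0.166, adjusted p = 0.000327). RRAGD reached 1 FPKM in EGFR-low libraries only and so passed the filter on low values through the group in which it was high. FLCN, which acts on the Rag GTPases, was higher by 1.05 (SE 0.15, adjusted p = 0.000344) and LAMTOR2, of the lysosomal anchor, by 0.86 (SE 0.194, adjusted p = 0.0034).

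Of 10 regulators known to act on transporter genes, 0 of 9 tested were called in untreated EGFR-low against EGFR-high cells (list median -0.09, all genes -0.03), and CEBPB was lower with the replicate block (-0.84, limma adjusted p = 0.0397). In the second experiment 3 of 9 were higher and 1 lower under each treatment (list median 0.51 with both), which is near or under the shares of all genes called (31.1% and 20.7% with DMSO, 36.2% and 22.8% with vorinostat), and with vorinostat the block, under which MYC and ATF3 were also called, gave 5 higher. DDIT3, a stress-induced target of ATF4, was at 70.1, 53.6 and 90.0 FPKM in EGFR-low DMSO and at 11.6, 13.5 and 21.6 FPKM in EGFR-high DMSO cells (2.14, SE 0.514, adjusted p = 0.00482). CEBPB was lower (-1.22, SE 0.285, adjusted p = 0.00411), and MYC was higher by 0.62 (SE 0.214, adjusted p = 0.0303). In vorinostat against DMSO 0 genes of any of these lists were called in EGFR-low or EGFR-high cells.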

How the data were processed

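RNA-seq of poly(A) RNA gave 21 PC-9 libraries, 3 per group. The submitters' processing notes name STAR 2.5.1b, Cufflinks 2.2.1, DESeq2 1.10.1 and hg19. The deposited values were read as FPKM made by the authors with Cufflinks, from their scale and although the tables are named as counts, and the summed FPKM of a library ran from 467897 to 592942. The depth is unknown, so low values carry an unknown counting error. The labels do not say that replicates were separate cultures, so p-values measure the spread between these libraries.

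The genes tested reached 1 FPKM in 3 or more libraries of their experiment (11305 untreated, 12236 in the vorinostat experiment). They were fitted on log2(FPKM + 1) with limma 3.58.1 in R 4.3.3 (mean-variance trend, 1 mean per group). P-values were adjusted by Benjamini-Hochberg over all genes tested, and genes under 0.05 were called. In the vorinostat experiment GGT1, SLC1A3, SLC1A6, SLC6A17 and BCAT1 passed the filter mainly through the group in which they were high. The experiments, normalized separately, were fitted separately. The members, gene lists and named genes (all members, EGFR, the up to 3 called genes of each list with the largest change, and the 5 genes most like SLC6A14; genes called only with the replicate block, and marker genes, were named after their values were seen) were chosen with earlier results of these data known.

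As a check of pairing, deviations from the group mean were correlated between libraries that carry one replicate number in the labels. Every pair exceeded 0.1 between EGFR-low and EGFR-high cells, untreated (0.343, 0.73, 0.689) and with vorinostat (0.353, 0.351, 0.163), and for vorinostat against DMSO among EGFR-low libraries (0.267, 0.302, 0.329). In these comparisons the numbers met the criterion for pairing, from the data and not from a stated design. All p-values are from the fit without a block unless the replicate block is named. Shares of all genes called were counted for the fit without a block only. The alternatives were a pseudocount of 0.1, no filter, median-of-ratios scaling, the replicate block, and each library left out in turn with the genes tested kept. Leaving out the intermediate libraries, or the first vorinostat libraries, was chosen after seeing the data. The fit was tested on simulated data. Python 3.11.15, pandas 2.3.3, scipy 1.17.1 and matplotlib 3.10.9 were used otherwise.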

Additional observations from a re-analysis of the deposited data

Results flagged for a closer look

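For 2 transporters the EGFR-low and EGFR-high libraries lay in one order without overlap when untreated and in the opposite order without overlap with DMSO, and SLC6A14 did so with vorinostat as well. The share of all genes that changed order in this way was not counted, so the 2 are not a result about transporters as a group. Of all genes tested with DMSO, 31.1% were called higher and 20.7% lower in EGFR-low cells. SLC6A14 in EGFR-low cells was 180 times its level in EGFR-high cells when untreated, 0.43 times with DMSO and 0.201 times with vorinostat, the last 2 between levels under 0.25 FPKM. SLC1A4 was at 0.316 times the EGFR-high level when untreated and at 1.57 times with DMSO, where the nearest libraries were at 6.01 and 6.0 FPKM, and its groups overlapped with vorinostat (ratio of means 1.56). These differences between experiments were not tested, because the values of each were normalized separately, and time in culture, solvent and experiment cannot be told apart in them. The identity of the EGFR-low libraries of the second experiment and of its 2 intermediate libraries was not settled by these data, which bears on each of these comparisons.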

How the results depend on the processing

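The number of members called stayed within 1.5 times its main value under every alternative in 7 of the 8 comparisons. The exception was untreated EGFR-low against parental cells, where the replicate block gave 2 members instead of 1, as SLC7A11 was then called (1.16, limma adjusted p = 0.0293). The numbers do not pair the libraries of that comparison, and the share of all genes called with the block was not counted. The block changed no other call among the members. SLC6A14 and SLC7A5 kept their calls under all alternatives, as did SLC7A11 (untreated, EGFR-low against EGFR-high) and SLC38A1. With the first vorinostat libraries left out, the SLC3A2 difference between vorinostat and DMSO in EGFR-high cells turned to 0.0868 (uncalled), SLC3A2 between EGFR-low and EGFR-high cells with vorinostat fell to 0.836 and lost its call (adjusted p = 0.0602), and SLC38A2 (-1.04) and SLC7A11 (-1.16) were called. Leaving out 1 library at a time, the same SLC3A2 response ran from -0.85 to 0.0868 and the SLC7A11 difference between EGFR-low and EGFR-high vorinostat cells from -0.911 to 0.211. A further 39 differences that were not called under any setting are not listed singly, of which 24 changed sign under at least 1 alternative, none larger than 0.292. The cause of these changes was not tested. Depth is unknown, so the order of libraries under about 1 FPKM, as for SLC6A14 in treated cells, is uncertain.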
